A study of Mus musculus with 6 samples.

Results

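Sinusoidal endothelial cells, the fenestrated cells that line the capillaries of the liver, made up 465 of the 11610 cells sequenced from livers of wild-type and SIRT7-/- mice. A cell was taken as one when at least 3 of the 8 genes *Stab2*, *Clec4g*, *Kdr*, *Ptprb*, *Gpr182*, *Oit3*, *Aqp1* and *Egfl7* had a unique molecular identifier (UMI, the tag that marks one captured RNA molecule) and when none of *Clec4f*, *C1qa*, *Cd3e*, *Ncr1*, *Cd79a* and *Siglech* had one. The excluded genes mark Kupffer cells, T cells, natural killer cells, B cells and plasmacytoid dendritic cells. The cells were thus chosen by the measured UMIs of these 14 genes, and those values are given as a description and are not tested.

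SIRT7 is a histone deacetylase, and the study used mice that lack it as a model of fatty liver disease that arises on a chow diet. There were 3 wild-type and 3 SIRT7-/- mice, of 5 to 6 months according to the sample labels, with no other allele or treatment named, and each mouse gave 1 library. For each library 3000 hepatocytes and 3000 nonparenchymal cells were mixed after collagenase perfusion and put on the 10x Genomics Chromium platform, so the mixture was set by hand and not by the liver. Strain and sex are not given in the labels.

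The wild-type mice gave 65, 110 and 67 endothelial cells, and the SIRT7-/- mice gave 167, 44 and 12. With 12 cells, SIRT7-/- mouse 3 is shown throughout but was left out of the tests across genes, which required 20 cells, so those tests compare 3 wild-type with 2 SIRT7-/- mice. The median endothelial cell held 2531, 1907.5 and 1001 UMIs in wild-type mice 1, 2 and 3 and 914, 1100 and 3175.5 UMIs in SIRT7-/- mice 1, 2 and 3. Over all its endothelial cells a mouse had between 49088 and 236486 UMIs, so that 1 UMI was worth between 0.0423 and 0.204 counts per 10000 (CP10K, the UMIs of a gene per 10000 UMIs of a cell, averaged over the cells of a mouse). Genes far below 1 CP10K thus rest on a handful of molecules. Only the 3′ end of each molecule was tagged, and no scaling by gene length was applied.

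*Sirt7* (chromosome 11, 120618372 to 120625240, minus strand, GRCm38) was sparse in the endothelial cells, with 4, 8 and 2 UMIs in wild-type mice and 3, 0 and 1 in SIRT7-/- mice. Over all cells of a mouse its level was 0.718, 0.512 and 0.546 CP10K in wild-type mice and 0.1, 0.0814 and 0.139 CP10K in SIRT7-/- mice. Every SIRT7-/- mouse was thus below every wild-type mouse over all cells, which is the check of the labels, while the endothelial cells alone held too few molecules for it.

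Liver sinusoidal endothelial cells have open pores and no ordinary basement membrane, so that plasma reaches the hepatocytes. They clear waste from the blood through scavenger and mannose receptors, feed the hepatocytes with secreted signals such as Wnt2, Wnt9b, R-spondin 3, BMP2 and BMP6, and differ along the lobule: Wnt2 and R-spondin 3 come mainly from the side of the central vein. In injured and fatty livers they are known to lose part of this identity and to gain features of ordinary capillaries.

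The 8 endothelial genes of the rule stood at similar levels in every mouse. *Aqp1*, the water channel, was at 38.2, 35.8 and 30.4 CP10K in wild-type mice and 23.3, 35.3 and 39.5 CP10K in SIRT7-/- mice. *Clec4g*, a C-type lectin of these cells, was at 22.4, 19.4 and 13.8 against 16.3, 20.5 and 22.1 CP10K, and *Stab2*, the hyaluronan scavenger receptor, at 15.4, 12.0 and 9.73 against 8.54, 10.3 and 13.6 CP10K. The genotypes overlapped in all 3. Summed over the 8 genes, the level ran from 108.7 CP10K in SIRT7-/- mouse 1 to 164.0 CP10K in SIRT7-/- mouse 3. Of the 465 cells, 120 had all 8 genes and 397 had at least 5.

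At the border of the rule, the 36 cells with exactly 3 of the genes carried 10.7 CP10K of *Aqp1*, 8.25 of *Fcgr2b* and 89.9 of the hepatocyte transcript *Alb*. The 32 cells just outside, with 2 of the genes, carried 5.33, 4.53 and 44.1 CP10K of the same genes and 48.8 CP10K of the neutrophil gene *S100a8*. RNA of other cells was also found inside the rule, with 23.8, 33.97 and 12.4 CP10K of *S100a8* in cells with 3, with 4 and with 5 or more of the genes, and with 97.95 CP10K of the immunoglobulin transcript *Igkc* in the 32 cells with 4. The 397 cells with 5 or more had 33.7 CP10K of *Aqp1*, 27.3 of *Fcgr2b* and 28.7 of *Alb*. A further 144 cells had at least 3 endothelial genes but also a UMI of an excluded gene, 80 of them in SIRT7-/- mouse 1. These held 14.8 CP10K of *Aqp1* and 197 CP10K of *Igkc*, and were not counted as endothelial cells.

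UMIs of endothelial genes were few in the Kupffer and T cells compared here, but the selection of these cells limited them. Kupffer cells (cells with *Clec4f* and *C1qa*) and T cells (cells with *Cd3e*) were taken only with fewer than 3 endothelial genes of the rule. The endothelial cells were chosen by the same genes, so the shares are descriptions. *Clec4g* had a UMI in 85.2% of the endothelial cells, in 0.934% of 3212 Kupffer cells and in 0.819% of 1221 T cells. The median depths were 1369, 2321 and 2458 UMIs. *Stab2* was the exception, with a UMI in 69.7% of endothelial cells, 20.8% of Kupffer cells and 2.46% of T cells. After thinning each cell to 800 UMIs the *Stab2* shares were 53.2%, 7.02% and 0.498%, so its share in Kupffer cells remained above that in T cells.

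Among genes that the rule did not use, endothelial genes led. The 20 genes with the highest level in endothelial cells relative to all other cells, among genes of at least 1 CP10K, were *Gpihbp1*, *Bmp2*, *Cyp26b1*, *Cldn5*, *Adgrf5*, *Tinagl1*, *Tspan7*, *Ehd3*, *Eng*, *Clec14a*, *Ramp2*, *Sparc*, *Fcgr2b*, *Flt4*, *Sema6a*, *Adgrl4*, *F8*, *Timp3*, *Cyp4b1* and *Adam23*. *Gpihbp1*, which carries lipoprotein lipase to the capillary lumen, was at 17.7, 11.4 and 11.6 CP10K in wild-type mice and 13.5, 15.8 and 13.3 CP10K in SIRT7-/- mice, against a mean of 0.106 CP10K in other cells. *Bmp2*, the signal that controls hepcidin in hepatocytes, was at 22.03, 16.7 and 14.5 against 14.3, 21.3 and 12.6 CP10K, and at 0.161 CP10K in other cells. *F8*, clotting factor VIII, which is made by the endothelium of the liver, was at 4.72, 5.20 and 2.26 against 4.0, 8.55 and 7.50 CP10K. All 3 overlapped between the genotypes.

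Markers of other endothelia were scarce. *Vwf*, the factor stored by endothelium of larger vessels, was at 0 in 5 of the 6 mice and at 0.116 CP10K in SIRT7-/- mouse 1. *Cd34*, a marker of ordinary capillaries, lay between 0 and 0.959 CP10K. *Prox1*, the factor of lymphatic endothelium that hepatocytes also express, had a mean of 0.455 CP10K in the endothelial cells and 0.684 CP10K in the others. *Dcn* of stellate cells had a mean of 0.17 CP10K and *Epcam* of bile duct cells was at 0 in every mouse.

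**Figure D1:**
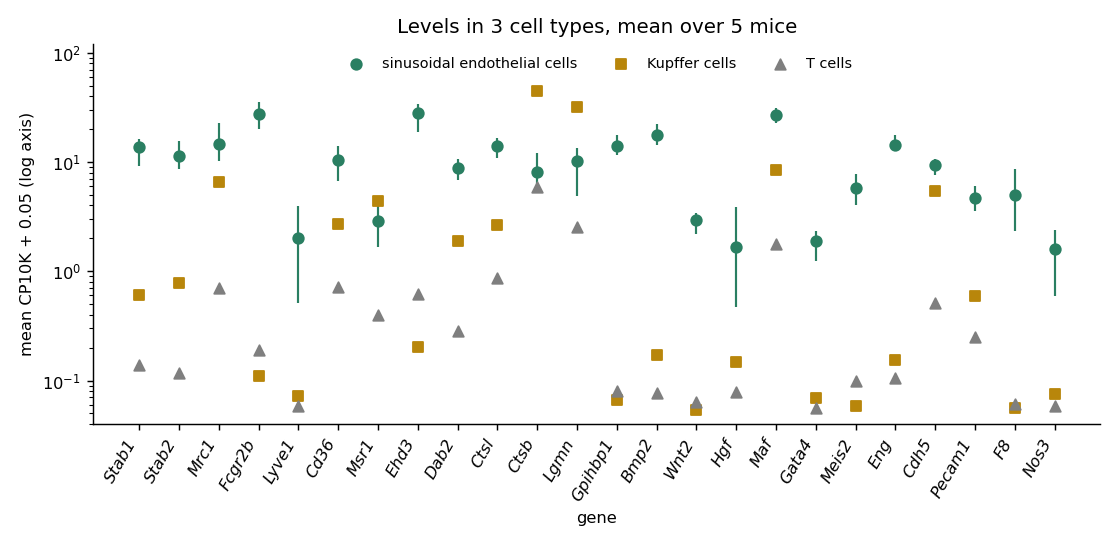
Mean level in sinusoidal endothelial cells (green circles, with a line from the lowest to the highest of the 5 mice), Kupffer cells (squares) and T cells (triangles) of 24 genes, on a log axis in CP10K with 0.05 added. *Fcgr2b*, *Ehd3*, *Bmp2* and *Gpihbp1* stand far above both other cell types, whereas *Ctsb* and *Lgmn* are higher in Kupffer cells.

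The receptors with which these cells clear the blood were prominent. *Fcgr2b*, the inhibitory Fc receptor that takes up immune complexes, had a mean of 27.1 CP10K in the endothelial cells and 0.0598 CP10K in Kupffer cells. *Stab1*, the sister scavenger receptor of *Stab2*, stood at 15.9, 15.6 and 10.9 CP10K in wild-type mice and 9.06, 16.2 and 18.2 CP10K in SIRT7-/- mice, with 0.561 CP10K in Kupffer cells. *Mrc1*, the mannose receptor, was shared with Kupffer cells, at 14.2, 13.9 and 11.6 against 10.2, 22.5 and 10.2 CP10K in endothelial cells and a mean of 6.44 CP10K in Kupffer cells.

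Lysosomal genes were divided between the scavenging cell types. *Ctsl*, a cathepsin, was at 13.6, 13.8 and 10.9 CP10K in wild-type and 16.4, 14.3 and 13.4 CP10K in SIRT7-/- endothelial cells, with 2.60 CP10K in Kupffer cells, while *Ctsb* and *Lgmn*, also lysosomal proteases, had means of 44.4 and 31.4 CP10K in Kupffer cells and stayed at or below 13.3 CP10K in the endothelial cells of the 5 mice with 20 or more cells. Of the 23 scavenger and endocytic genes tested, 8 had a higher mean in Kupffer cells than in endothelial cells.

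The secreted signals of the sinusoid followed. *Wnt2* was at 2.80, 3.2 and 3.34 CP10K in wild-type mice and 2.13, 2.84 and 3.73 CP10K in SIRT7-/- mice. *Bmp6* was at 1.42, 0.932 and 1.59 against 1.41, 2.04 and 0.545 CP10K, and *Hgf*, hepatocyte growth factor, at 1.12, 1.52 and 0.425 against 1.10, 3.82 and 1.10 CP10K. The genotypes overlapped in each. Among transcription factors, *Maf*, which keeps the sinusoidal programme, was highest with 27.8, 29.5 and 24.0 against 22.4, 31.1 and 19.0 CP10K. *Gata4*, the factor that specifies sinusoidal over ordinary capillary endothelium, was at 2.26, 2.06 and 1.96 against 1.19, 1.80 and 1.28 CP10K, all 3 SIRT7-/- mice being below all 3 wild-type mice, with a log2 fold change of -0.50 ± 0.39 (SE) that did not pass the test (adjusted p = 0.748).

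Among the 465 cells, 134 had a UMI of *Wnt2*, *Wnt9b* or *Rspo3*, the signals of the central vein side, and 331 had none. Over all mice the former held a median of 1856.5 UMIs and the latter 1251.0. By mouse the former were deeper in the wild-type mice and SIRT7-/- mouse 2. They were not in SIRT7-/- mouse 1 (864 against 928.5) or mouse 3 (3175.5 against 3998). The values that follow are descriptions within each of the 5 mice. *Thbd*, thrombomodulin, averaged 1.43 CP10K in cells with such a UMI and 0.275 CP10K in cells without, and was higher in 5 of 5 mice. *Cdh13*, a cadherin of the central vein side, averaged 1.69 and 0.302 CP10K and was also higher in 5 of 5 mice. Of 9 central vein side genes other than those that made the classes, 3 were higher in 5 of 5 mice, 2 in 4 and 4 in 3.

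Of 10 genes of the portal side, 3 were lower in 5 of 5 mice, 4 in 4 of 5, and 3 (*Efnb2*, *Itga9* and *Dll1*) in 3 of 5. *Ntn4*, a netrin, averaged 0.662 CP10K in cells with a Wnt signal UMI and 2.07 CP10K in cells without, and was lower in 5 of 5 mice. *Dll4*, a Notch ligand, averaged 0.247 and 1.45 CP10K and *Msr1*, a scavenger receptor, 1.32 and 3.50 CP10K, each lower in 4 of 5 mice. *Kit*, the receptor of stem cell factor and a gene of the central side, averaged 4.62 and 2.74 CP10K but was higher in only 3 of 5 mice. *Stab2* was higher in the first class in 5 of 5 mice, though by little, at 12.5 against 10.6 CP10K. Position in the lobule was not measured here.

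The first comparison between the genotypes is the share of endothelial cells. They made up 5.23%, 11.8% and 6.12% of the cells of wild-type mice 1, 2 and 3 and 2.98%, 2.02% and 2.17% of those of SIRT7-/- mice 1, 2 and 3. The exact (Clopper-Pearson) 95% intervals, which cover counting error only, ran from 4.06 to 6.62%, from 9.79 to 14.03% and from 4.78 to 7.71% in wild-type mice and from 2.55 to 3.46%, from 1.47 to 2.70% and from 1.13 to 3.77% in SIRT7-/- mice. Every SIRT7-/- mouse was below every wild-type mouse, and wild-type mouse 2 stood well above the others. The means were 7.71% ± 3.56 (SD, n = 3) and 2.39% ± 0.514 (SD, n = 3), with p = 0.1 in a two-sided exact permutation test, the smallest p that 3 mice against 3 can give.

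The order was the same after thinning each cell to 800 UMIs before the rule was applied (5.52%, 11.2% and 6.08% against 1.85%, 1.89% and 1.83%) and without the excluded genes (5.55%, 12.4% and 8.87% against 4.40%, 3.07% and 2.36%). Among cells with under 2% of their UMIs from 10 hepatocyte genes, the shares were 18.0%, 21.1% and 5.71% against 2.74%, 2.27% and 4.13%, the difference growing from 5.32 to 11.9 percentage points. Against T cells the order was lost, with 36.9, 95.7 and 38.7 endothelial cells per 100 T cells in wild-type mice and 55.1, 10.1 and 70.6 in SIRT7-/- mice (p = 0.7, exact permutation test). The share therefore depends on which cells stand in the denominator, and Kupffer cells made up 3.78%, 3.75% and 18% of all cells of wild-type mice and 41.9%, 23.9% and 11.4% of those of SIRT7-/- mice. The Kupffer share of SIRT7-/- mouse 3 lay within the wild-type range, while its endothelial share did not. With cells mixed by hand, fewer endothelial cells in the liver and more of the other nonparenchymal cells in the mixture cannot be told apart.

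**Figure D2:**
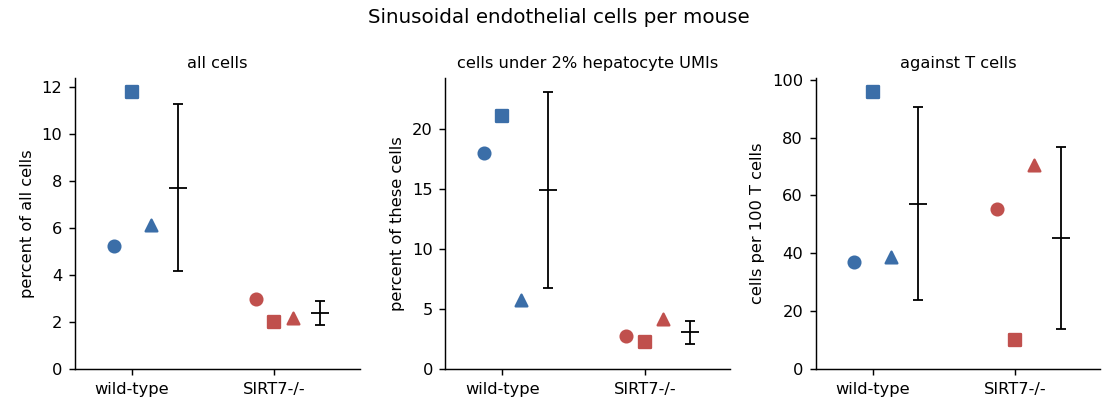
Endothelial cells of each mouse as a percentage of all cells, as a percentage of cells with under 2% hepatocyte UMIs, and per 100 T cells. Circles, squares and triangles are mice 1, 2 and 3 of each genotype, and the bars give mean ± SD of 3 mice. The genotypes separate in the first and second panel and overlap in the third.

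The second comparison is of gene expression in the endothelial cells. Of 10571 genes that averaged 0.05 CP10K or more, 45 passed an adjusted p of 0.05 (0.426% of those tested), 14 higher (0.132%) and 31 lower (0.293%) in SIRT7-/- mice. The log2 fold change of all genes had a median of -0.07. At an unadjusted p of 0.05 it was 848 genes (8.02%), 298 higher (2.82%) and 550 lower (5.2%). The mice of both genotypes did not overlap for 1110 genes in the higher direction (10.5%) and 1390 in the lower (13.1%). The count depends on how limma shares variance across genes. Without its trend and robust options 0 genes passed, with 796 at an unadjusted p of 0.05, and with weights on summed UMIs 55 genes passed, of which 45 were higher and 10 lower. SIRT7-/- mice 1 and 2 contributed 167 and 44 cells. Leaving out either left 1 SIRT7-/- mouse in the fit, with no spread within that genotype, so no count is given.

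Genes that lead in the endothelial cells were called at a share near that of all genes, though more of them lay below 0. Of 293 genes with at least 1 CP10K and at least 5 times the level of other cells, 1 was called, *Lyve1* (0.341%, beside 0.426% over all genes), while 4 were higher (1.37%, beside 2.82%) and 17 lower (5.8%, beside 5.2%) at an unadjusted p of 0.05. Their median log2 fold change was -0.13, and 102 of the 293 lay above 0, beside 46.5% of all genes. The mice of both genotypes did not overlap for 60 of the 293 in the lower direction and 10 in the higher. Over all genes these shares were 13.1% and 10.5%. Among 28 pan-endothelial genes tested 0 were called, 1 was lower at an unadjusted p of 0.05 (*Emcn*, the sialomucin endomucin, at 2.28, 2.40 and 3.02 against 1.51, 1.40 and 1.15 CP10K) and the median was -0.18. Of 20 transcription factors of these cells and of 17 genes of BMP and TGF-beta signalling, 0 were called, with medians of -0.02 and -0.00.

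**Figure D3:**
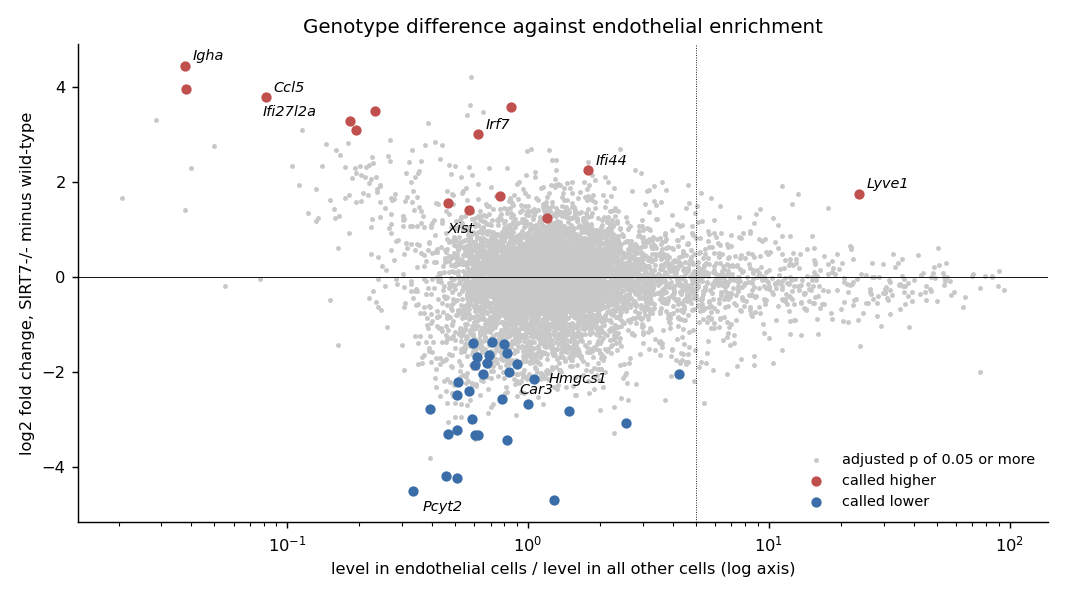
Each point is a gene of at least 0.2 CP10K in the endothelial cells. The horizontal axis (log) is its level there divided by that in all other cells with 0.05 CP10K added to both, the vertical axis the log2 fold change of SIRT7-/- minus wild-type mice. Genes called higher are red and genes called lower blue. Right of the dotted line, at 5 times other cells, *Lyve1* is the gene called.

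*Lyve1* (chromosome 7, 110850607 to 110863239, minus strand, GRCm38), a hyaluronan receptor that sinusoidal cells share with lymphatic vessels, was at 1.74, 0.466 and 0.991 CP10K in wild-type mice and 3.87, 2.78 and 1.63 CP10K in SIRT7-/- mice, from 31, 10, 8, 64, 15 and 7 UMIs. SIRT7-/- mice 1 and 2 were above every wild-type mouse, whereas SIRT7-/- mouse 3, outside the test, lay just below wild-type mouse 1. The log2 fold change was 1.75 ± 0.42 (SE, 3 wild-type and 2 SIRT7-/- mice) with an adjusted p of 0.023 (limma). In other cells its mean was 0.0352 CP10K, below its level in the endothelial cells of every mouse.

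The call for *Lyve1* was not firm. With all 6 mice the log2 fold change was 1.43 and the adjusted p 0.483, without wild-type mouse 2 it was 1.29 and 0.532, and with a floor of 0.2 CP10K on the genes tested the adjusted p was 0.215. Without the cells that had a UMI of a leukocyte gene it was 2.02 with an adjusted p of 0.00559. Of the other scavenger and endocytic genes, *Ctss*, a cathepsin of leukocytes, was higher at an unadjusted p (0.185, 0 and 0.326 against 0.622, 0.99 and 0.252 CP10K, adjusted p = 0.247) and has a mean of 13.3 CP10K in Kupffer cells. The median log2 fold change of the 23 genes was -0.02.

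2 further genes with at least 2 times the level of other cells were called, both lower. *Kcnk6*, a potassium channel, was at 1.45, 1.10 and 1.05 CP10K in wild-type mice and 0.237, 0.264 and 0 CP10K in SIRT7-/- mice, with no UMI in hepatocyte-rich cells. All 3 SIRT7-/- mice were below all wild-type mice, and the log2 fold change was -2.04 ± 0.52 (SE, adjusted p = 0.0397). *Khdrbs3*, an RNA-binding protein, was at 0.76, 0.674 and 1.2 against 0.176, 0 and 0.349 CP10K (log2 fold change -3.08 ± 0.70, adjusted p = 0.0108), again with no overlap.

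Of the central vein side genes none was called. Of 12 tested, 3 had a log2 fold change above 0 and the median was -0.55, beside 46.5% above 0 and a median of -0.07 over all genes. *Kit* was at 2.73, 5.48 and 4.72 CP10K in wild-type mice and 1.63, 2.44 and 0.666 CP10K in SIRT7-/- mice, which did not overlap (log2 fold change -1.03 ± 0.36, adjusted p = 0.297). *Thbd* was at 0.70, 0.936 and 0.669 against 0.266, 0.565 and 0.607 CP10K, also without overlap (adjusted p = 0.691). *Fabp4*, a fatty acid carrier that was higher in cells with a Wnt signal UMI in 4 of 5 mice, was highest in SIRT7-/- mice 1 and 3 and lowest in SIRT7-/- mouse 2, at 4.56, 4.66 and 2.32 against 10.2, 1.93 and 9.59 CP10K.

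The 10 portal side genes had a median of 0.13 with 0 called. *Ltbp4*, which binds latent TGF-beta, was at 3.51, 2.76 and 2.49 against 1.72, 1.87 and 2.22 CP10K (adjusted p = 0.67). *Cyp26b1*, which degrades retinoic acid and was the third most enriched gene of these cells, was at 25.5, 7.82 and 8.64 CP10K in wild-type mice and 1.26, 6.81 and 4.01 CP10K in SIRT7-/- mice. All 3 SIRT7-/- mice lay below the wild-type mice, with wild-type mouse 1 far above and SIRT7-/- mouse 1 far below the rest.

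Genes of vascular tone, growth and matrix showed 0 calls. *Nos3*, endothelial nitric oxide synthase, was at 1.93, 2.32 and 1.37 CP10K in wild-type mice and 0.548, 1.6 and 0.30 CP10K in SIRT7-/- mice, where SIRT7-/- mouse 2 lay within the wild-type range (adjusted p = 0.546). The growth factor receptor genes *Flt4*, *Nrp1* and *Tek* overlapped between the genotypes, and the 13 VEGF and angiopoietin genes tested had a median of -0.16. The 12 Notch genes had a median of 0.11. Of 13 genes tested in a list of capillary markers and basement membrane genes, 2 were higher at an unadjusted p of 0.05 (15.4%, beside 2.82% over all genes). These were the capillary marker *Cd34* and the surface antigen *Ly6a*, neither of them a basement membrane gene. The median of the list was 0.29.

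*Ly6a*, the surface antigen Sca-1, which interferons induce in endothelium, was at 2.46, 2.49 and 4.0 CP10K in wild-type mice and 4.92, 24.8 and 15.3 CP10K in SIRT7-/- mice. Every SIRT7-/- mouse was above every wild-type mouse, with mouse 2 far above mouse 1. The log2 fold change of 1.91 ± 0.65 did not pass the test (limma, adjusted p = 0.517), though it passed in 8 of the 20 alternatives tried. 1 of these left out SIRT7-/- mouse 1, so that mouse 2 alone stood for the genotype. The log2 fold change was 3.07 in that fit and 0.751 with mouse 1 alone.

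Interferon-stimulated genes had the most genes called of the lists examined by number, but not by share. Of 24 tested, 3 were called, *Ifi27l2a*, *Irf7* and *Ifi44*, all higher (12.5%, beside 0.132% over all genes). The share was 40% of 5 B and plasma cell genes and 25% of 4 lymphatic and of 4 nuclear RNA genes. At an unadjusted p of 0.05, 10 of the 24 were higher (41.7%, beside 2.82%). 22 of the 24 lay above 0, beside 46.5% of all genes, with a median log2 fold change of 0.86. IRF proteins, transcription factors of the interferon response, bind motifs of the GAAA type in the promoters of such genes.

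*Ifi27l2a* (chromosome 12, 103442167 to 103443680, minus strand, GRCm38), a small mitochondrial and nuclear membrane protein induced by interferon, was at 0.255, 0.0678 and 0.635 CP10K in wild-type mice and 1.87, 4.13 and 2.27 CP10K in SIRT7-/- mice, from 11, 1, 7, 42, 41 and 8 UMIs. *Irf7* (chromosome 7, 141262706 to 141266481, minus strand, GRCm38), the transcription factor that amplifies the type I interferon response, was at 0.115, 0.11 and 0.226 against 0.826, 2.73 and 1.06 CP10K, from 2, 1, 3, 16, 13 and 4 UMIs. *Ifi44* (chromosome 3, 151730922 to 151749960, minus strand, GRCm38), an interferon-induced GTP-binding protein, was at 0.321, 0.198 and 0.585 against 1.12, 2.87 and 2.83 CP10K, from 5, 4, 8, 17, 16 and 10 UMIs. In all 3 genes each SIRT7-/- mouse, the third included, was above each wild-type mouse.

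The log2 fold changes were 3.28 ± 0.57 for *Ifi27l2a* (SE, adjusted p = 0.000659), 3.01 ± 0.65 for *Irf7* (adjusted p = 0.0051) and 2.25 ± 0.53 for *Ifi44* (adjusted p = 0.0168), all by limma on 3 wild-type and 2 SIRT7-/- mice. SIRT7-/- mouse 2 was the highest in each. Without it, which left mouse 1 as the only SIRT7-/- mouse in the fit, the log2 fold changes fell to 2.72, 2.18 and 1.59. Kupffer cells had means of 13.8, 3.61 and 1.21 CP10K of these genes, above the endothelial means of 1.39, 0.801 and 1.02 CP10K. The share that free RNA of other cells had in these values was not tested. Without the 85 cells that had a UMI of *Tyrobp*, *Cd3d*, *Cd3g*, *Trbc2* or *Cd79b* all 3 genes still passed, with adjusted p of 0.0345, 0.0362 and 0.00559.

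Other interferon-stimulated genes did not pass the test. *Bst2*, tetherin, the highest of the list, was at 6.79, 7.29 and 5.87 CP10K in wild-type mice and 5.96, 13.2 and 12.0 CP10K in SIRT7-/- mice, where mouse 1 lay within the wild-type range. *Ifit2*, which blocks viral translation, was at 0.155, 0.131 and 0.178 against 0.409, 1.16 and 0.769 CP10K, without overlap (adjusted p = 0.418). Summed over the 24 genes the level was 15.1, 14.9 and 15.5 CP10K in wild-type mice and 18.5, 47.8 and 32.7 CP10K in SIRT7-/- mice, so all 3 SIRT7-/- mice were above the wild-type mice and mouse 1 was by far the least so.

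**Figure D4:**
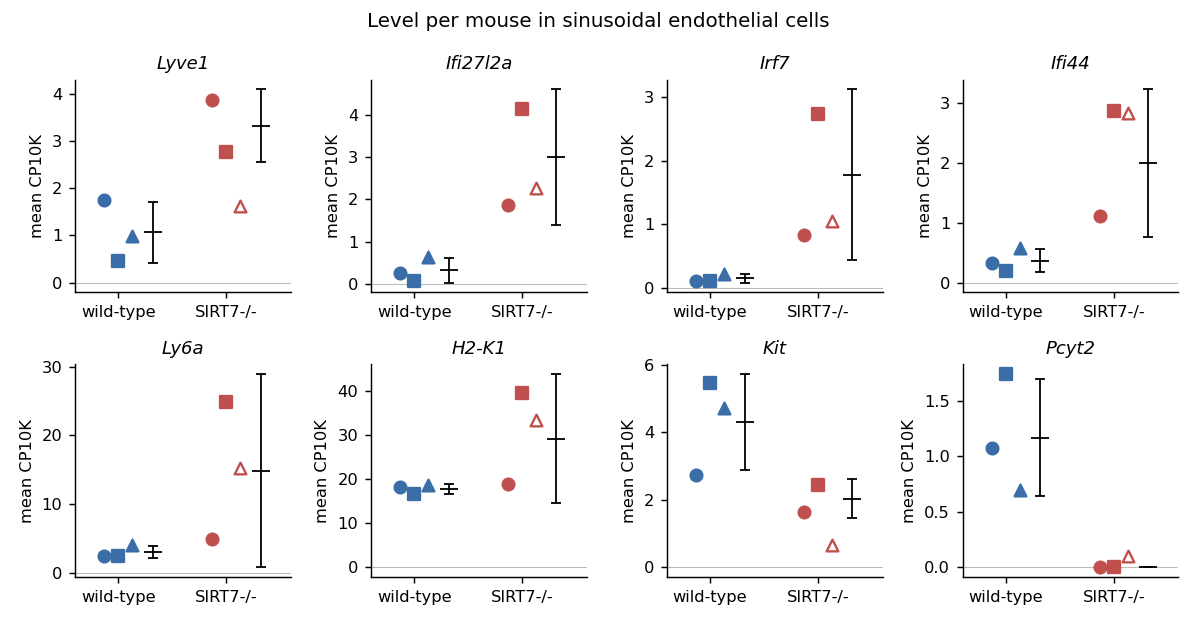
Mean CP10K in the endothelial cells of each mouse for 8 genes. Circles, squares and triangles are mice 1, 2 and 3, the open triangle is SIRT7-/- mouse 3 with 12 cells, and the bars give mean ± SD of the mice in the test (3 wild-type, 2 SIRT7-/-). *Ifi27l2a*, *Irf7*, *Ifi44* and *Ly6a* are above the wild-type range in all SIRT7-/- mice, whereas *Lyve1* is above it in 2 of them.

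The promoters of the called interferon-stimulated genes are shown because a motif bound by IRF proteins can be looked for in them. RefSeq promoter sequences of *Irf7* and *Ifi44* (GRCm38.p6), 250 bases up to the transcription start on the minus strand, were searched on both strands for AANNGAAA, the core bound by IRF proteins. Matches are in capitals.
Irf7, chr7:141266425-141266674: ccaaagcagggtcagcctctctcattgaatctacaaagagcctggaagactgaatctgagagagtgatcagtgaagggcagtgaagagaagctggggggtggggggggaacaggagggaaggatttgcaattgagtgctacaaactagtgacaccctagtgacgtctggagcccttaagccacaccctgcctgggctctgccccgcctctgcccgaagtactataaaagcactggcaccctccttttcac
Ifi44, chr3:151749911-151750160: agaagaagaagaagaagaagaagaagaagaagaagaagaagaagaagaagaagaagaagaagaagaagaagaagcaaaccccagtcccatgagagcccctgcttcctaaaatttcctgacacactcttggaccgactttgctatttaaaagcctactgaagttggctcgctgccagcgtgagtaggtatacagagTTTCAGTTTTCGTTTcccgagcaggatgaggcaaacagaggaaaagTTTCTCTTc
*Ifi44* held 3 matches of AANNGAAA, of which a pair overlapped, at 55, 48 and 9 bases before the start, and *Irf7* held 0. Of all 32851 promoters of this length in the table, 21.3% held AANNGAAA, so a match is common.

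Class I antigen presentation genes, which interferons also induce, did not pass the test, and their values set SIRT7-/- mice 2 and 3 apart from mouse 1. *H2-K1*, a class I heavy chain, was at 18.2, 16.5 and 18.6 CP10K in wild-type mice and 18.9, 39.6 and 33.3 CP10K in SIRT7-/- mice. *B2m*, the class I light chain, was at 20.7, 19.8 and 19.4 against 18.2, 40.7 and 28.6 CP10K, and *H2-D1* at 11.1, 9.91 and 11.3 against 12.2, 21.1 and 21.9 CP10K. Wild-type mice differed little among themselves and SIRT7-/- mouse 1 stood with or next to them. The adjusted p (limma) was 0.569, 0.699 and 0.65. With mouse 2 as the only SIRT7-/- mouse in the fit the log2 fold change of *H2-K1* was 1.15, and with mouse 1 as the only one it was 0.0866. Of 20 adhesion and antigen presentation genes 1 was called, *Ccl5*, and the median was 1.02.

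*Ccl5*, a chemokine of T and natural killer cells, was at 0.0334, 0 and 0.234 CP10K in wild-type and 0.84, 2.35 and 0 CP10K in SIRT7-/- endothelial cells (log2 fold change 3.79 ± 0.80, adjusted p = 0.00405), and its mean in all other cells was 9.01 CP10K. RNA of other immune cells was also present. T and natural killer cell genes summed to 0.501, 0.0883 and 3.06 CP10K in wild-type mice and 4.43, 5.79 and 0 CP10K in SIRT7-/- mice. 10 of the 12 were tested and all 10 lay above 0, beside 46.5% of all genes. Of the 10, 1 was called higher, beside 0.132% over all genes. Wild-type mice 1 and 2 held little of this RNA, unlike wild-type mouse 3. Some of these genes could thus have passed the floor on the mean level through the SIRT7-/- mice. How many did so was not counted.

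B and plasma cell genes summed to 0.522, 1.70 and 0.726 against 31.9, 4.24 and 0.103 CP10K, with 2 of 5 tested called higher (beside 0.132% over all genes). These were *Igha*, the heavy chain of immunoglobulin A, at 0.143, 0.0606 and 0 against 7.64, 0.603 and 0 CP10K, and *Jchain*, which joins its units, at 0, 0.078 and 0 against 3.91, 0.242 and 0 CP10K. Both rest mostly on SIRT7-/- mouse 1, which had 283 of the 290 *Igha* UMIs. *Jchain* averaged 0.026 CP10K in wild-type mice, below the floor of 0.05 CP10K, and was tested only because of the SIRT7-/- mice. *Cd79a*, the marker used to exclude B cells, was at 0 by the rule.

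Neutrophil genes summed to 0.0221, 0.747 and 1.05 CP10K in wild-type mice and to 108 CP10K in SIRT7-/- mouse 1, but only to 0.24 and 1.26 CP10K in SIRT7-/- mice 2 and 3. *S100a8* alone stood at 40.7 CP10K in SIRT7-/- mouse 1 and at or below 0.436 CP10K elsewhere. Kupffer cell genes summed to 6.43, 5.33 and 9.82 against 21.5, 14.5 and 4.64 CP10K, with *Clec4f* at 0 by the rule. Of the 12 tested, 11 lay above 0, beside 46.5% of all genes, and 0 were called. The part that doublets or free RNA of these cells had in the values was not tested.

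**Figure D5:**
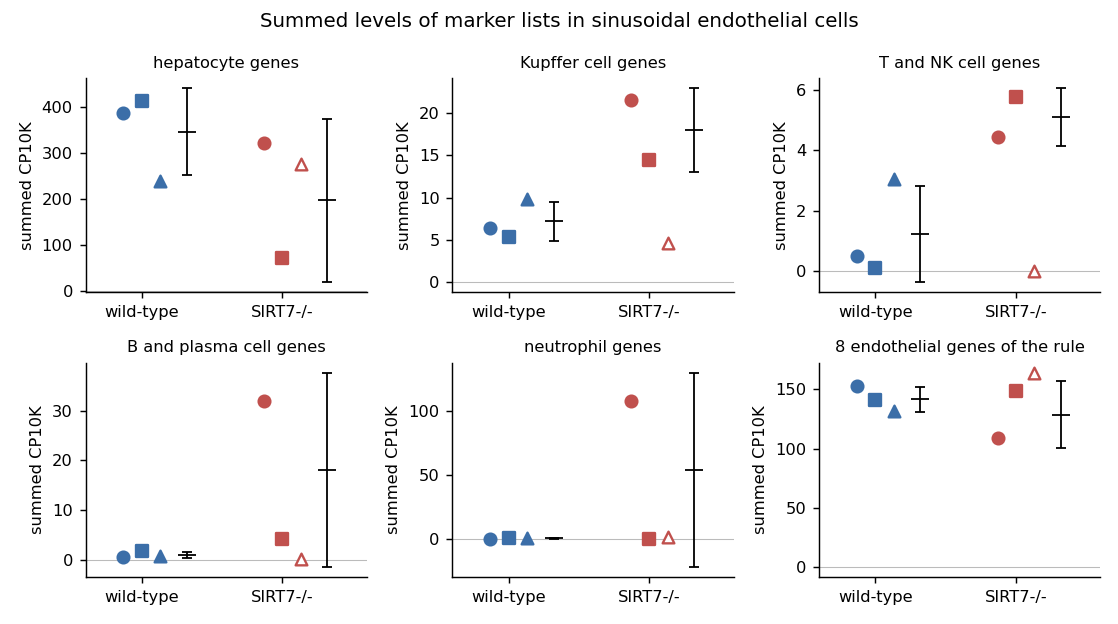
Summed CP10K of marker lists in the endothelial cells of each mouse. Circles, squares and triangles are mice 1, 2 and 3, the open triangle is SIRT7-/- mouse 3 with 12 cells, and bars give mean ± SD of the mice in the test. Neutrophil and plasma cell RNA is high in SIRT7-/- mouse 1, hepatocyte RNA is lowest in SIRT7-/- mouse 2, and the 8 endothelial genes overlap between the genotypes.

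Most genes called lower had a higher level in hepatocyte-rich cells (342 other cells with at least 10% of their UMIs from 10 hepatocyte genes). Of the 31, 23 were at least 2 times higher there than in the endothelial cells. The share of all tested genes at that ratio was not counted. The list of 24 hepatocyte genes had 2 called lower (8.33%, beside 0.293% over all genes) and 8 lower at an unadjusted p of 0.05 (33.3%, beside 5.2%). These 24 genes had a median log2 fold change of -1.34, beside -0.07 over all genes. Their summed level in endothelial cells was 387, 413 and 238 CP10K in wild-type mice and 322, 70.3 and 276 CP10K in SIRT7-/- mice. SIRT7-/- mouse 2 was thus far below the others, while mice 1 and 3 lay within the wild-type range. Of a median endothelial cell, 1.94%, 1.99% and 1.15% of UMIs came from 10 hepatocyte genes in wild-type mice and 1.48%, 0.235% and 1.45% in SIRT7-/- mice. How far the calls follow this RNA was not tested.

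*Cyp2c50*, a cytochrome P450 of the arachidonic acid epoxygenase family and the gene with the smallest p, was at 1.70, 3.33 and 2.28 CP10K in wild-type mice and 0.284, 0.119 and 0.396 CP10K in SIRT7-/- mice (log2 fold change -3.33 ± 0.47, adjusted p = 1.55e-06). *Car3*, carbonic anhydrase 3, was at 9.91, 13.7 and 11.7 against 4.10, 2.0 and 5.29 CP10K (log2 fold change -2.0 ± 0.33, adjusted p = 5.45e-05). The genotypes did not overlap in either, and the means in hepatocyte-rich cells were 8.52 and 17.7 CP10K. The P450 genes *Cyp3a44*, *Cyp2c69* and *Cyp2c37*, the sulfotransferase *Sult2a3*, the glycine cleavage enzyme *Gldc* and the plasma protein gene *Hrg* were also called, with log2 fold changes from -4.25 to -2.99. SIRT7-/- mouse 1 held 1, 1, 3, 2, 3 and 7 UMIs of them in this order, and mouse 2 held 0 of each. *Cyp3a44*, *Cyp2c69* and *Sult2a3* averaged 0.0103, 0.0162 and 0.0488 CP10K in these mice, below the floor of 0.05 CP10K, and were tested only because of the wild-type mice. Of *Cyp2c69*, wild-type mice 1, 2 and 3 held 9, 140 and 8 UMIs.

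*Hmgcs1*, an enzyme of cholesterol synthesis, was at 1.59, 3.68 and 6.05 against 0.81, 0.598 and 1.90 CP10K (log2 fold change -2.16 ± 0.41, adjusted p = 0.00197), where SIRT7-/- mouse 3 reached the range of wild-type mouse 1.

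*Pcyt2* (chromosome 11, 120610087 to 120617936, minus strand, GRCm38), an enzyme of phosphatidylethanolamine synthesis, is the neighbour of *Sirt7* on chromosome 11. It was at 1.07, 1.74 and 0.695 CP10K in the wild-type (18, 45 and 7 UMIs) and at 0, 0 and 0.103 CP10K in SIRT7-/- mice (0, 0 and 1 UMI). With a floor of 3 counts over the UMIs of SIRT7-/- mice 1 and 2 (0.12 CP10K), it was at least 9.79-fold lower, with an adjusted p of 5.45e-05. The same order was seen outside the endothelial cells. In Kupffer cells the level was 0.988, 1.2 and 0.465 against 0.044, 0.0568 and 0.078 CP10K (log2 fold change -3.01, adjusted p = 0.0128, with 0.14% of 9992 genes called there), and in all other cells 5.27, 3.94 and 1.63 against 0.0883, 0.0626 and 0.0953 CP10K.

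Of the 14 genes tested in the list of *Sirt7*, its chromosomal neighbours and the other sirtuins, *Pcyt2* was the one called. *Mafg*, *Anapc11* and *Alyref*, which also lie near *Sirt7*, overlapped between the genotypes, at 1.36, 0.929 and 1.64 against 1.58, 1.22 and 1.77 CP10K for *Mafg*. *Arhgdia*, another of them, was higher at an unadjusted p (3.52, 2.04 and 4.08 against 4.22, 6.15 and 7.09 CP10K, adjusted p = 0.602).

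*Xist*, the long noncoding RNA of the inactive X chromosome, was at 11.4, 12.6 and 12.7 CP10K in wild-type mice and 32.03, 33.6 and 71.3 CP10K in SIRT7-/- mice (log2 fold change 1.42 ± 0.29, adjusted p = 0.00243). All 3 SIRT7-/- mice were above all wild-type mice, whereas in the other cells the values were 60.9, 35.4 and 25.6 against 31.1, 26.3 and 105 CP10K and overlapped. Other nuclear RNAs did not pass the test. *Neat1* was at 5.11, 5.67 and 4.05 against 8.94, 9.59 and 21.5 CP10K (adjusted p = 0.315) and *Kcnq1ot1* at 0.491, 0.822 and 0.412 against 1.64, 2.25 and 5.92 CP10K (adjusted p = 0.0703). *Malat1*, the most abundant, overlapped at 164, 151 and 163 against 192, 159 and 274 CP10K. *Gm26917* and *Gm42418*, transcripts that share sequence with ribosomal RNA and whose reads are uncertain, were also called higher.

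Of the genes of the unfolded protein response and the integrated stress response, 22 were tested. 0 were called, beside 0.426% over all genes. At an unadjusted p of 0.05, 5 were lower (22.7%, beside 5.2% over all genes) and 0 higher (beside 2.82%), and the median was -0.47. *Pdia6*, a disulfide isomerase, was at 4.52, 2.49 and 2.26 CP10K in wild-type mice and 1.45, 0.855 and 4.2 CP10K in SIRT7-/- mice (adjusted p = 0.11), and *Hspa5*, the chaperone BiP, at 6.97, 4.46 and 2.75 against 2.90, 2.08 and 7.44 CP10K (adjusted p = 0.529). *Ddit3*, which encodes CHOP, was at 0.482, 0.314 and 0.138 against 0.233, 0.153 and 1.11 CP10K, and *Atf4* at 1.29, 1.32 and 2.01 against 1.32, 1.31 and 1.61 CP10K. SIRT7-/- mouse 3 was the highest of all mice for *Hspa5* and *Ddit3*. The depth of its cells was also the highest.

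Immediate-early genes, which rise when tissue is dissociated, showed 0 calls of 20 with a median of 0.06, and 12 cell cycle genes 0 calls with a median of 0.41. Of the other genes called higher, *Aspg*, an asparaginase, was at 0.374, 0.0993 and 0 CP10K in wild-type mice and 1.14, 2.59 and 1.22 CP10K in SIRT7-/- mice (log2 fold change 3.59 ± 0.71, adjusted p = 0.00246), all 3 being above the wild-type mice. *Ms4a4b*, *Lgals3* and *Sh3bgrl3*, genes abundant in leukocytes, were called higher too and had means of 3.64, 2.78 and 7.80 CP10K in other cells.

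The third comparison set the genotype difference in endothelial cells against that in Kupffer cells of the same mice. Of 9151 genes 0 differed in limma (0.0%), with 448 at an unadjusted p of 0.05 (4.9%) and between 0 and 4 passing in the alternatives. The genes with the smallest p among those of at least 0.5 CP10K were *Plac8*, *Irf7*, *Pxmp2*, *Aspg* and *Ppp1r3b*, with a more positive difference in endothelial cells, and *Cd9*, *Prkch*, *4930402H24Rik*, *Rnf167* and *Ensa*, with a more negative one, all at an adjusted p of 0.919. For *Irf7* the difference between the cell types was 2.35 ± 0.64 (SE) on the log2 scale, and for *Aspg* 3.76 ± 1.09. None of the called genes was shown to differ in its genotype effect from Kupffer cells.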

How the data were processed

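Single-cell RNA sequencing of 6 livers was used. The deposited table holds the natural log of UMI counts that the authors scaled to 10000 per cell, with 1 added. The submitters' processing notes name Cell Ranger 6.0.0 and the mm10 build, and the study kept cells of 500 genes upwards and at most 5% mitochondrial UMIs, and genes seen in 3 or more cells. The log was undone, and rescaling by the worth of 1 UMI, taken as a cell's smallest value, turned each of the 12961041 nonzero values into a whole UMI to within 0.02. The table has 16623 genes in 11610 cells, and 26 cells carry a barcode sequence that occurs in more than 1 mouse, 1 of them an endothelial cell. Scrublet in scanpy 1.11.5 marked between 0.0535% and 1.53% of the cells of a mouse as doublets, too few to be relied on, and they were kept in the main analysis.

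Genes were compared on log2(mean CP10K + 0.05) per mouse with limma 3.58.1 (R 4.3.3, trend and robust variance, Benjamini-Hochberg adjusted p under 0.05) over genes averaging 0.05 CP10K or more. Fold changes on this scale understate changes of low genes. Mice, not cells, were the replicates, and shares were compared by a two-sided exact permutation test (scipy 1.17.1). Each mouse is 1 library, so the spread between mice and between libraries cannot be told apart. An alternative fitted the UMIs summed per mouse with limma's voom weights.

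Endothelial cells and gene lists were chosen with earlier results of these data known. Named are the genes of the rule, from each list the genes called and otherwise those with the highest level, the 20 genes with the highest ratio to other cells, and the 10 genes per direction with the largest fold change among called genes of at least 0.5 CP10K without overlap, and 5 per direction in the comparison with Kupffer cells. *Kcnk6*, *Hmgcs1*, *Cyp2c50* as the smallest p, *Ly6a*, *Emcn*, *Nos3*, *Pdia6*, *Fabp4*, *Ltbp4*, *Ifit2*, *Arhgdia* and *Ctss* were singled out after their values were seen. Coordinates were taken from the GENCODE M21 annotation of GRCm38, which is not stated to be the one the authors used, and promoters are from RefSeq (GRCm38.p6). Some items are not reported here.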

Additional observations from a re-analysis of the deposited data

How the results depend on the processing

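The count of 45 genes called in the endothelial cells depended on the settings. It was 93 with a pseudocount of 0.5 CP10K, 11 with a floor of 0.2 CP10K, 98 with no floor, 18 after centring mice on the median gene and 0 without trend and robust variance. It was 15 with all 6 mice, and, in alternatives chosen after seeing the data, 27 with at least 5 of the 8 endothelial genes and 68 without cells holding a leukocyte UMI. Leaving out 1 mouse gave 33 to 282 genes, the latter without SIRT7-/- mouse 1. The share of calls that were higher was 31.1%, and it was 9.09% with the floor of 0.2 CP10K, 12.5% with means of log values, 81.8% with weights on summed UMIs, 20.4% when cells were thinned, 53.3% with all mice, 42.4% without wild-type mouse 2 and 48.9% without wild-type mouse 3. The causes were not tested. Of 900 combinations of a called gene and an alternative, 525 kept the call, 375 lost it and 0 changed direction, and 0 genes were called in all 20 alternatives. The 20 include the fits with 1 SIRT7-/- mouse, which have no spread within that genotype. Against Kupffer cells 4 genes passed with a pseudocount of 0.5 CP10K. The share of endothelial cells kept its direction throughout, the difference being -6.57 to -3.29 percentage points without 1 mouse. With the replicate number as a block 132 genes passed, but same-numbered mice did not vary together (correlations of 0.011 and -0.109), so the numbers were not taken as pairs. Depth limited genes far below 1 CP10K, since 1 UMI was worth up to 0.204 CP10K.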
